A study of Mus musculus with 6 samples.

Results

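miR-219 and miR-338 are microRNAs (miRNAs, short RNAs that repress matching mRNAs) closely tied to oligodendrocytes, the myelin-forming glia of the brain. All rows named miR-219a, miR-219c or miR-338 were taken from a table of 1522 mature miRNAs, which gave 7 members, 5 of miR-219 and 2 of miR-338, and all 7 passed the filter for testing. They were measured in hippocampal neural stem cells, the precursors of neurons and glia, taken from C57BL/6J males on postnatal day 3. In the exposed group, called GDE here and IUGR in the library titles, the dams had received daily intraperitoneal dexamethasone, which activates the glucocorticoid receptor, at 1 mg/kg, with E14.5 (embryonic day) as the first day of injection and E18.5 as the last. The dams of the Control group, called Normal in the titles, had received saline on the same days. Each group had 3 libraries, which the design text assigns to independent litters. The labels name a neural tissue dissociation kit, and no sorting step is given in the sources used here. The members are, by their full names, mmu-miR-338-5p, mmu-miR-338-3p, mmu-miR-219a-5p, mmu-miR-219a-1-3p, mmu-miR-219a-2-3p, mmu-miR-219c-5p and mmu-miR-219c-3p, and the prefix is left out from here on.

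As background, miR-219a-5p and miR-338-3p are switched on when oligodendrocyte precursors stop dividing and begin to differentiate, and they are abundant in mature oligodendrocytes. Their known targets include mRNAs of factors that hold precursors in the immature state, among them Sox6, Hes5 and the receptor Pdgfra. The other arm of each hairpin is usually the passenger strand, which is degraded more often than it is kept. The members therefore bear on the question of how much oligodendrocyte commitment a stem cell preparation contains, and whether it differed between the groups.

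The sequences are shown first because the hairpins show which rows can share reads. Of the 7 members, 6 were matched to a mature sequence in RefSeq (GRCm38.p6). They are printed 5′ to 3′ with the seed, bases 2 to 8, in capitals.

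mmu-miR-338-5p: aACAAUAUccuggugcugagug
mmu-miR-338-3p: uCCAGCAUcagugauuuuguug
mmu-miR-219a-5p: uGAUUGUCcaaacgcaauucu
mmu-miR-219a-1-3p: aGAGUUGCgucuggacgucccg
mmu-miR-219c-5p: gGACGUCCagacgcaacucucg
mmu-miR-219c-3p: cGAGAAUUgcguuuggacaauc

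These 6 seeds all differ, and 0 other mature mouse miRNAs of the RefSeq table share any of them, so the members form no common seed family. miR-338-3p and miR-219a-5p begin with U, as did 40.6% of the 456 tested miRNAs that had a RefSeq sequence, while their partner arms miR-338-5p and miR-219a-1-3p begin with A (27.2%). miR-219a-1-3p is rich in G and C (63.6%, against a median of 47.8% over the 456 miRNAs), as is miR-219c-5p, with the same share.

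miR-219a-5p is cut from a pair of hairpins with the same 5p arm, so its reads cannot be assigned to either. Mir219a-1 lies on chromosome 17, 34024983 to 34025092 on the minus strand, 303 bases upstream of Ring1, where GENCODE M21 places an exon of the long noncoding RNA Gm26940. Mir219a-2 lies on chromosome 2, 29845631 to 29845727 on the minus strand, 629 bases from Urm1 and in no other annotated gene than the miRNAs themselves. Mir219c is the opposite strand of Mir219a-1, at chromosome 17, 34025012 to 34025071 on the plus strand, and its 60 bases lie wholly within the other hairpin. The hairpins are printed here with the mature arms in capitals to show this.

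Mir219a-1: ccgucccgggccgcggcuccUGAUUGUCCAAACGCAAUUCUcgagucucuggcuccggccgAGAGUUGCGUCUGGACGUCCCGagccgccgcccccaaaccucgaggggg
Mir219c: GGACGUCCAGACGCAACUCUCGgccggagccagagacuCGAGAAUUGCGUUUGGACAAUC
Mir338: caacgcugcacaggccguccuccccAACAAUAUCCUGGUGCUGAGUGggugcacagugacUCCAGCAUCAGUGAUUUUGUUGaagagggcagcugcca

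miR-219c-3p overlaps miR-219a-5p by 20 bases, and miR-219c-5p overlaps miR-219a-1-3p by 20 bases, in each case fully complementary. miR-219b-3p, from the strand opposite Mir219a-2, likewise overlaps miR-219a-5p by 21 complementary bases. Whether the authors' counting used the strand is not given in the sources used here, so a read of an arm and a read of its opposite strand partner might not have been told apart. Mir338 lies on chromosome 11, 120014765 to 120014862 on the minus strand, in an intron of Aatk, which encodes a neuronal kinase and is transcribed in the same direction. Its opposite strand holds Mir3065, whose 5p arm overlaps miR-338-3p by 21 bases. No member had the same values as another row of the table.

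The libraries rested on about 11751000 to 12385000 reads (tags) each, and 24.1% to 27.8% of these were in the table. Values are RPM, which divides the tags of a miRNA by the depth of its library, and 1 tag was worth 0.0807 to 0.0851 RPM. A count of 0 would allow up to 3 tags, or 0.242 to 0.255 RPM, and no member was at 0 in any library. Adapter ligation favours some sequences over others, so a level of 1 miRNA against another describes reads and not molecules. In such a preparation fewer cells of a type and less of a miRNA per cell cannot be told apart.

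The members differed from each other by far more than the groups did. The miR-338 arms were the highest, and miR-338-5p stood above miR-338-3p in 6 of 6 libraries. Next came miR-219a-1-3p, then miR-219a-5p and then miR-219c-3p, each above the following one in 6 of 6 libraries. miR-219c-3p and miR-219a-2-3p were not separated, with miR-219c-3p above in 5 of 6 libraries only, and miR-219c-5p was the lowest. The miR-338 arms made up 94.3% to 94.7% of the summed RPM of the 7 members in GDE and 87.7% to 95.2% in Control. All 7 together were 0.258% to 0.285% of the RPM of the table in GDE libraries and 0.223% to 0.259% in Control libraries.

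**Figure D1:**
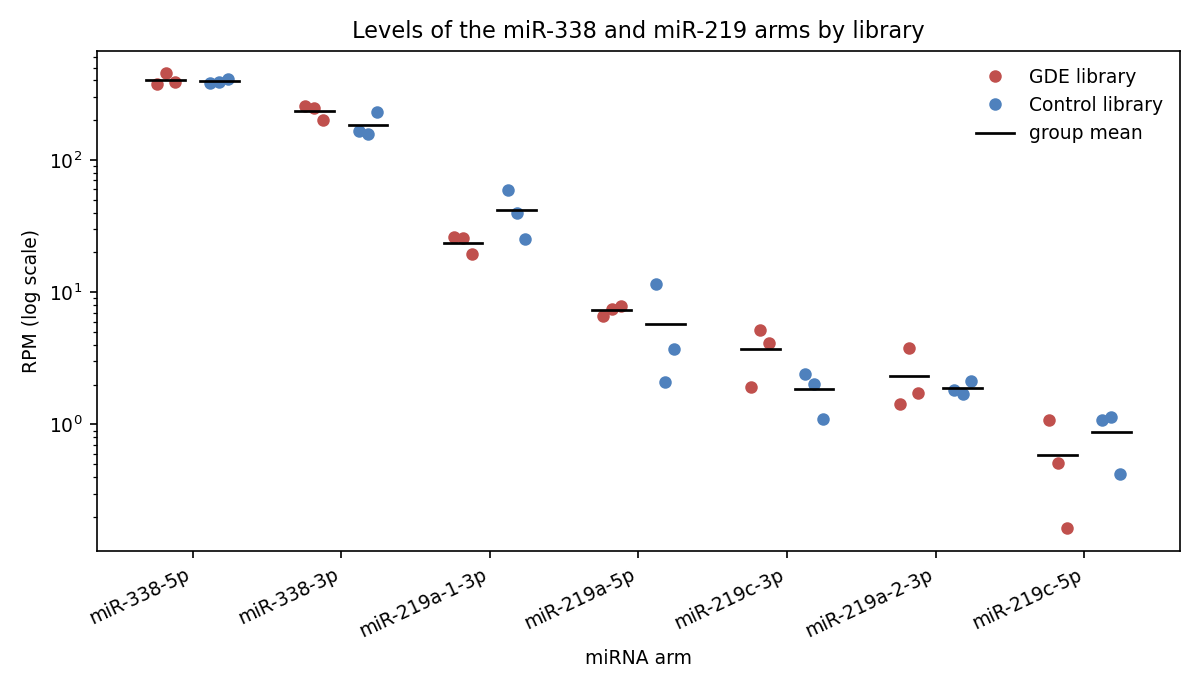
RPM (log axis) of each miR-338 and miR-219 arm in each of the 3 GDE and 3 Control libraries, with bars at the group means. The miR-338 arms sit at 155.9 RPM or more in every library, while miR-219a-5p does not exceed 11.5 RPM, and no arm separates the groups fully.

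miR-338-3p, the arm known to act in oligodendrocyte differentiation, was at 256.5, 247.3 and 200.0 RPM in GDE replicates 1 to 3 and at 164.3, 155.9 and 229.2 RPM in Control replicates 1 to 3. GDE replicates 1 and 2 were the highest and Control replicates 1 and 2 the lowest, while GDE replicate 3 lay below Control replicate 3, so the groups overlapped. The means were 234.6 ± 30.3 RPM in GDE and 183.1 ± 40.1 RPM in Control (SD, n = 3 each), 1.28 times as high in GDE. GDE over Control gave a log2 fold of 0.37 (SE 0.22, 95% interval -0.13 to 0.87). Over all 649 tested miRNAs this was not past the threshold of 0.05 (limma, adjusted p = 0.618; exact two-sided permutation p = 0.2). With 3 against 3 libraries the permutation test cannot give less than 0.1.

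miR-338-5p, the partner arm, was at 372.7, 450.7 and 388.8 RPM in GDE and at 379.4, 389.7 and 411.0 RPM in Control. The libraries of the groups were interleaved, with GDE replicate 2 the highest and GDE replicate 1 the lowest. Its log2 fold was 0.03 (SE 0.15, 95% interval -0.31 to 0.38; limma, adjusted p = 0.986). It was -0.05 without GDE replicate 2. This was the steadiest member, with an SD within groups of 0.11 in log2 units, against a median of 0.27 over the 72 tested miRNAs within 2-fold of its level. At rank 84 to 98 by library it stood close to miR-138-5p, another miRNA of differentiating oligodendrocytes, which averaged 333.8 ± 33.3 RPM in GDE and 308.2 ± 29.3 RPM in Control (n = 3 each).

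miR-219a-5p, the arm that acts in precursors leaving the cell cycle, was low. It held 6.59, 7.45 and 7.83 RPM in GDE and 11.5, 2.10 and 3.74 RPM in Control, which are 79 to 95 tags in GDE and 26 to 138 tags in Control. The GDE libraries lay close together, and the Control libraries lay above them (replicate 1) and below them (replicates 2 and 3). Its means were 7.29 ± 0.634 RPM in GDE and 5.77 ± 5.00 RPM in Control (SD, n = 3 each). The variance of the tags was 0.737 times their mean in GDE, which counting alone can give over 3 libraries, and 52.2 times in Control. The groups differed by a log2 fold of 0.54 (SE 0.46, 95% interval -0.52 to 1.61; limma, adjusted p = 0.723; exact two-sided permutation p = 0.6). It was 1.11 without Control replicate 1 and 0.11 without Control replicate 2, so single Control libraries set its size. Its SD within groups, 0.73 in log2 units, was above the median of 0.32 over the 152 tested miRNAs within 2-fold of its level.

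**Figure D2:**
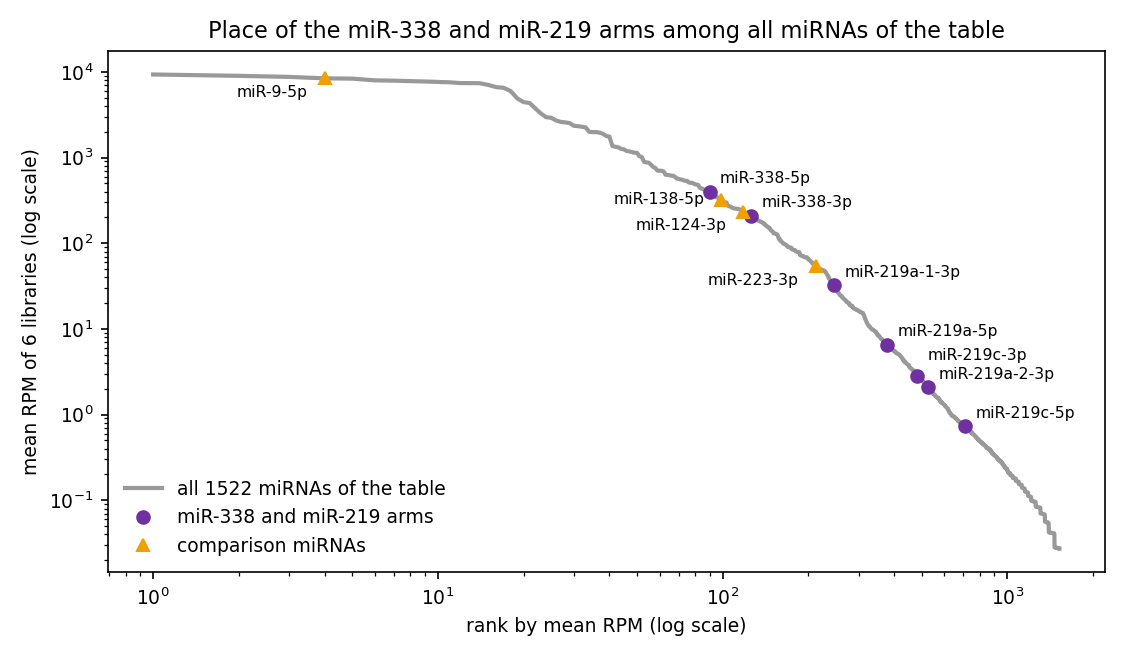
Mean RPM of the 6 libraries against rank, both on log axes, for all 1522 miRNAs of the table (grey line), the 7 miR-338 and miR-219 arms (circles) and comparison miRNAs (triangles). miR-338-5p is at rank 90 and miR-338-3p at 126, near the neuronal miR-124-3p at 118, whereas miR-219a-5p is at rank 378 and miR-9-5p at rank 4.

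miR-219a-1-3p, the partner arm from the chromosome 17 hairpin, was the most abundant product of miR-219. It was at 26.2, 25.6 and 19.3 RPM in GDE and at 59.8, 39.6 and 25.2 RPM in Control. The 2 highest values were Control libraries and the lowest was a GDE library, and the groups overlapped only because Control replicate 3 lay below GDE replicates 1 and 2. Its means were 23.7 ± 3.82 RPM in GDE and 41.5 ± 17.4 RPM in Control (SD, n = 3 each), with a log2 fold of -0.71 (SE 0.33, 95% interval -1.47 to 0.04; limma, adjusted p = 0.561; exact two-sided permutation p = 0.3). Without Control replicate 1 it was -0.41. miR-219a-2-3p, the partner arm from the chromosome 2 hairpin, was at 1.42, 3.81 and 1.73 RPM in GDE and at 1.83, 1.70 and 2.13 RPM in Control. These are 17 to 45 tags in GDE and 21 to 25 tags in Control. The Control values lay within the range of the GDE values, and GDE replicate 2 stood above the other libraries. Its log2 fold was 0.14 (SE 0.28, 95% interval -0.51 to 0.79; limma, adjusted p = 0.931), and it was -0.16 without GDE replicate 2.

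The miR-219c arms, from the strand opposite Mir219a-1, were low. Of these miR-219c-5p, at 2 to 14 tags, was near the limit of what the depth can resolve. miR-219c-3p was at 1.92, 5.16 and 4.12 RPM in GDE, or 23 to 61 tags, and at 2.41, 2.02 and 1.11 RPM in Control, or 13 to 29 tags. GDE replicates 2 and 3 were the highest, and GDE replicate 1 lay within the Control range. Its log2 fold was 0.70 (SE 0.32, 95% interval -0.05 to 1.45; limma, adjusted p = 0.561; exact two-sided permutation p = 0.3), and on the recovered tags edgeR gave 1.12 (quasi-likelihood test, adjusted p = 0.58). miR-219c-5p was at 1.08, 0.508 and 0.165 RPM in GDE and at 1.08, 1.13 and 0.425 RPM in Control. GDE replicate 3 held 2 tags, with an exact 95% binomial interval of 0.0200 to 0.596 RPM, which covers counting error only. The log2 fold of miR-219c-5p was -0.26 (SE 0.28, 95% interval -0.92 to 0.39; limma, adjusted p = 0.801). It was -0.06 without GDE replicate 3, -0.48 without GDE replicate 1, -0.45 without Control replicate 3 and -0.16 without Control replicate 2. Some opposite strand arms that are not members were in the table. miR-3065-5p averaged 14.6 ± 3.16 RPM in GDE and 12.2 ± 2.06 RPM in Control (n = 3 each), and differed by 0.24 in log2 (SE 0.24; limma, adjusted p = 0.787), and miR-219b-5p, opposite Mir219a-2, was at 0.085 to 0.499 RPM over the 6 libraries and did not pass the filter. miR-219b-3p had no row in the table, and miR-3065-3p, which had a row, is not described here.

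**Figure D3:**
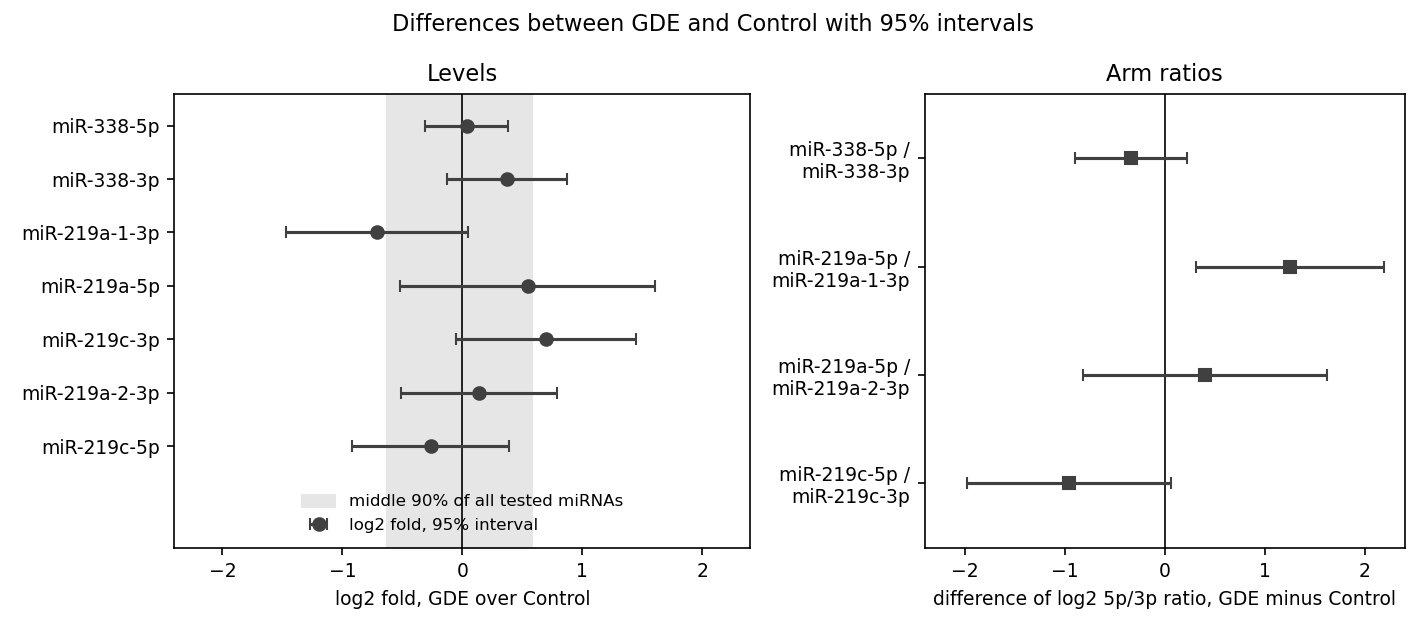
Left, log2 fold of GDE over Control for the 7 arms, with 95% intervals from limma and a grey band for the middle 90% of all tested miRNAs (-0.63 to 0.58). Right, the difference of the log2 5p/3p ratio, GDE minus Control, for 4 pairs of arms; the interval of miR-219a-5p over miR-219a-1-3p, 0.32 to 2.20, lies above 0 but is not adjusted for the 157 pairs tested.

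Over the 7 members, 0 passed an adjusted p of 0.05 in limma, against 2 of all 649 tested miRNAs, or 0.308%. With so few calls in the whole table, 0 among 7 says little about the members. At an unadjusted p under 0.05 limma had 0 of the 7, against 8.63% of all tested miRNAs. On the recovered tags 0 of the 7 passed by edgeR (0.308% of all tested) or by limma-voom (0.154%), and 0 passed by DESeq2 (1.25%), which gave miR-219c-5p no adjusted p. Groups that did not overlap were seen in 0 of the 7 members, against 14.6% of all tested miRNAs. The log2 fold was positive for 5 members and negative for 2, with a median of 0.14, and it was positive for 252 and negative for 397 of all tested miRNAs, with a median of -0.07. All 7 of the 95% intervals held 0, and they reached as low as -1.47 in log2 for miR-219a-1-3p and as high as 1.61 for miR-219a-5p, with the narrowest at -0.31 to 0.38 for miR-338-5p.

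The arms of each hairpin were then compared within each library. The tested ratios are of log2(RPM + 1), so those of low arms still move with the scaling. miR-338-5p exceeded miR-338-3p by 1.45, 1.82 and 1.94 times in GDE and by 2.31, 2.50 and 1.79 times in Control. The ratio was lowest in GDE replicate 1 and highest in Control replicate 2, and the groups overlapped. The log2 ratio of 5p over 3p was lower in GDE by a difference of -0.33 (SE 0.24, 95% interval -0.89 to 0.22; limma over 157 pairs of arms, adjusted p = 0.769), which was -0.21 without GDE replicate 1. Over the 6 libraries the mean log2 ratio was 0.95, with 46.5% of the 157 pairs lower.

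miR-219a-1-3p exceeded miR-219a-5p in every library, by 2.46 to 3.98 times in GDE and by 5.21 to 18.9 times in Control. The known guide strand thus had fewer reads than its partner, although miR-219a-5p also collects the reads of Mir219a-2. All GDE ratios lay below all Control ratios, a separation of groups that 11.5% of the 157 pairs showed. The log2 ratio of miR-219a-5p over miR-219a-1-3p was higher in GDE by 1.26 (SE 0.40, 95% interval 0.32 to 2.20), with an unadjusted p of 0.0156, and it did not pass over the 157 pairs (limma, adjusted p = 0.647). The difference was 0.81 without Control replicate 2, whose miR-219a-5p rests on 26 tags, and 0.74 with a pseudocount of 10. Of the 157 pairs, 0 (0%) passed the adjusted threshold and 10 (6.37%) had an unadjusted p under 0.05.

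miR-219a-5p against miR-219a-2-3p differed by 0.40 on the log2 scale between the groups (SE 0.52, 95% interval -0.82 to 1.63; limma, adjusted p = 0.896). This difference ran from 0.015 without Control replicate 2 to 0.98 without Control replicate 1, and was 0.21 without Control replicate 3, 0.25 without GDE replicate 3 and 0.69 without GDE replicate 2. miR-219c-3p exceeded miR-219c-5p by 1.77, 10.2 and 25.0 times in GDE and by 2.23, 1.79 and 2.60 times in Control. The large ratios of GDE replicates 2 and 3 rest on 6 and 2 tags of miR-219c-5p. The log2 ratio of miR-219c-5p over miR-219c-3p was lower in GDE by a difference of -0.96 (SE 0.44, 95% interval -1.98 to 0.06; limma, adjusted p = 0.647). Without GDE replicate 1 it was -1.49 (limma, adjusted p = 0.0576, the lowest over the alternatives, which gave up to 0.959), and it was -1.60 with a pseudocount of 0.1 and -0.25 with a pseudocount of 10. The pairs with miR-219a-5p share that arm, so they are not independent.

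**Figure D4:**
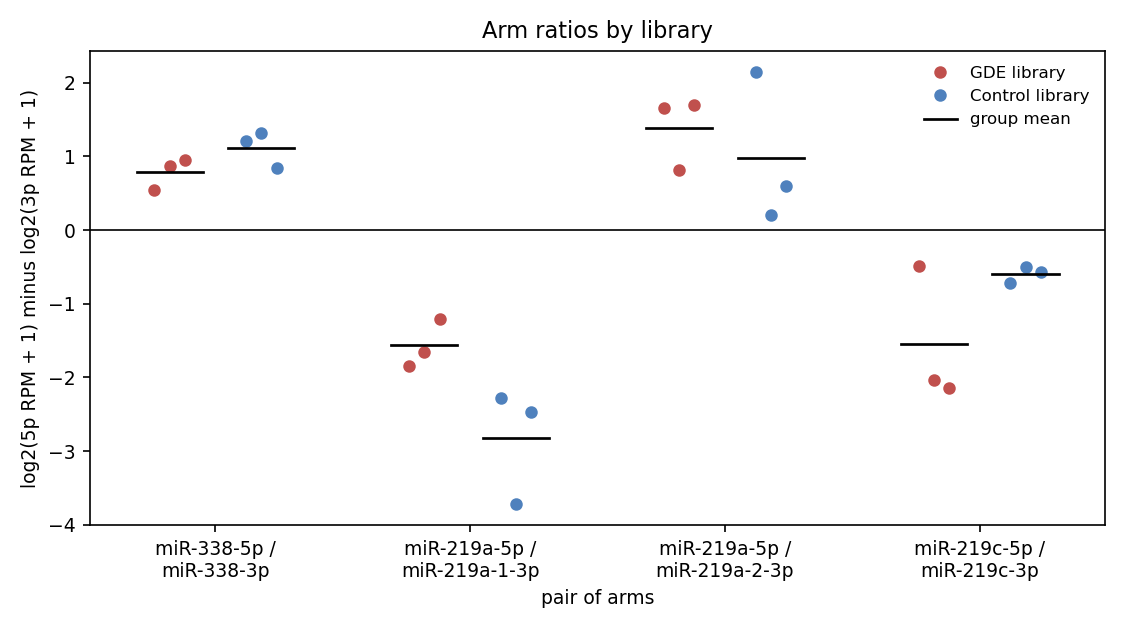
Difference of log2(RPM + 1) between the 5p and the 3p arm for 4 pairs of arms in each of the 3 GDE and 3 Control libraries, with bars at the group means. For miR-219a-5p against miR-219a-1-3p all GDE libraries lie at -1.84 to -1.20, above the Control libraries at -3.71 to -2.28.

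Other miRNAs described in the oligodendrocyte lineage were read beside the members. The list held 14 miRNAs, all in the table and all tested, and was chosen from general knowledge with earlier results of these data known. The log2 fold was positive for 7 and negative for 7, with a median of 0.02. At the threshold over all miRNAs 1 of the 14 passed, against 2 of all 649 tested (0.308%). That 1 of the 14 was miR-297c-5p of the Sfmbt2 cluster, described as promoting differentiation of precursors. It had 6100 tags over the GDE libraries and 1 tag over the Control libraries (limma, adjusted p = 4.72e-07). With the list chosen in that way, this count is no evidence on the lineage. The remaining 13 did not pass. miR-23a-3p, which favours oligodendrocyte maturation by repressing lamin B1, averaged 2841 ± 354 RPM in GDE and 2986 ± 303 RPM in Control. Members of the miR-17-92 cluster, miR-17-5p and miR-19b-3p, which support proliferation of precursors, were at 198.2 ± 17.5 and 421.6 ± 99.4 RPM in GDE and at 250.0 ± 66.9 and 553.8 ± 185.7 RPM in Control (n = 3 each), with log2 folds of -0.31 and -0.37 (limma, adjusted p = 0.687 for each). miR-32-5p, linked to myelin protein expression, averaged 446.9 ± 119.6 RPM in GDE and 380.0 ± 155.3 RPM in Control. The groups did not overlap for 2 of the 14, close to the 14.6% of all tested miRNAs. Besides miR-297c-5p this was miR-145a-5p, also a miRNA of smooth muscle and pericytes, at 4.15 to 5.28 RPM in GDE and 2.42 to 3.23 RPM in Control. Its log2 fold was 0.63 (SE 0.19; limma, adjusted p = 0.551). Of the 14, 3 also stand in lists of other cell types, namely miR-9-5p, miR-204-5p and miR-145a-5p.

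Markers of other cells were set beside the members. miR-9-5p, of neural progenitors, had 8389 ± 209 RPM in GDE and 8427 ± 357 RPM in Control, or 32.2 to 41.4 times miR-338-3p in GDE and 38.5 to 52.3 times in Control. The neuronal miR-124-3p averaged 238.6 ± 28.4 RPM in GDE and 229.0 ± 50.8 RPM in Control, which is 28.3 to 40.5 times miR-219a-5p in GDE and 24.7 to 105.5 times in Control. The 5 microglia and leukocyte miRNAs summed to 409.1 to 572.5 RPM in GDE and to 222.5 to 369.7 RPM in Control, with 4 positive log2 folds, 0 past the threshold, and miR-142a-5p at 0 in Control replicate 1. The 3 erythroid miRNAs, 2 of them tested, summed to 73.8 to 93.5 RPM in GDE and to 35.0 to 69.0 RPM in Control. These sums did not overlap between the groups, and neither did 14.6% of all tested miRNAs taken singly. Among the erythroid miRNAs only miR-451a separated the groups (log2 fold 0.996). miR-486a-5p (0.049) and the untested miR-144-3p overlapped. By mean RPM the largest part of the microglia and leukocyte sum was miR-150-5p, with a log2 fold of 1.28. Its groups did not overlap, nor did those of miR-223-3p (1.55) and miR-142a-3p (1.72). Those of miR-142a-5p (1.23) and miR-155-5p overlapped. The negative log2 fold of that list was that of miR-155-5p (-0.25). The part of these sums in the values of the members was not tested. The 4 endothelial and mural miRNAs summed to 339.7 to 558.8 RPM in GDE and to 316.0 to 408.9 RPM in Control, the 4 astroglial ones to 8280 to 9253 RPM in GDE and 8286 to 9029 RPM in Control, and the 6 neuronal ones to 2316 to 2797 RPM in GDE and 2446 to 2709 RPM in Control. For the 7 progenitor miRNAs the sums were 19060 to 20736 RPM in GDE and 19723 to 21350 RPM in Control, and for the 4 of choroid plexus and ependyma 1973 to 2306 RPM in GDE and 1949 to 2385 RPM in Control. Such sums follow their most abundant miRNAs and can hide others. The astroglial sum was mostly miR-26a-5p (7760.3 RPM in GDE, 7688.5 RPM in Control), whereas miR-29b-3p had a log2 fold of 0.59 without overlap. In the choroid and ependyma list miR-204-5p and miR-449a-5p had log2 folds of 1.10 and 0.55. There miR-34b-3p and miR-34c-5p had -0.45 and -0.25. In both lists 0 passed the threshold.

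The miRNAs whose pattern over the 6 libraries was most like that of the leading member of each family were looked up among 317 named miRNAs of at least 10 RPM. For miR-219a-1-3p these were miR-301b-3p, miR-676-3p, miR-93-5p, miR-155-5p and miR-34b-3p, with Pearson's r of log2 values between 0.968 and 0.984. For miR-338-5p they were miR-345-5p, miR-27b-3p, miR-499-5p, miR-188-5p and miR-190a-5p, with r between 0.749 and 0.875. By rank (Spearman's rho) the values were 0.771 to 1.0 for miR-219a-1-3p but only 0.371 to 0.657 for miR-338-5p. All these values describe 6 shared libraries only. They were picked as the highest of 317, so their size is no result in itself. The level of miR-219a-1-3p also moved with the summed RPM of the table (r = 0.791), and that of miR-338-5p did not (r = -0.027).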

How the data were processed

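Small RNA libraries were made from TRIzol-extracted total RNA with the MGIEasy Small RNA kit, per the labels' protocols. The submitters' processing notes name Bowtie2 and mm10; trimming, molecular identifiers, strand use and multiple matches are steps not given in the sources used here. That the deposited values are RPM was taken from the numbers. Those of each library were whole multiples of 1 step (100% of nonzero values within 0.1 tags), which gave the depth and whole tags.

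The main test was limma 3.58.1 with a trend in R 4.3.3 on log2(RPM + 1), over the 649 miRNAs of at least 1 RPM in 3 libraries, two-sided, with Benjamini-Hochberg adjustment over all of them. The 1 RPM added before taking logs understates changes of low miRNAs. Arm ratios used limma over 157 pairs. edgeR 4.0.16, DESeq2 1.42.0 and limma-voom were run on the recovered tags, where edgeR called 2 of 649 miRNAs. Permutation tests used scipy 1.17.1 in Python 3.11.15. The fits were tested on simulated data with planted changes, as a check of the method only. Their power for differences of the size seen in the members was not measured. Other alternatives were the pseudocount (0.1, 10), the filter, the scaling, leaving out each library and a replicate block. Intervals cover counting error only where said. Replicates of a group differed by more than sampling noise (chi-square per degree of freedom 39.1 to 139.4).

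The members and lists were chosen with earlier results of these data known. Named miRNAs are the members, the lists, called miRNAs with a miRBase name and the 5 most like in pattern; miR-3065-5p and miR-219b-5p were added for their overlap.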

Additional observations from a re-analysis of the deposited data

How the results depend on the processing

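Wherever an alternative gave an adjusted p, 0 of the 7 members and 0 of the 4 arm ratios passed 0.05. Throughout, 1 of the 14 other lineage miRNAs passed, from a list chosen with earlier results known. The count over all miRNAs was 2, and it was 1 with a filter of 10 RPM, 7 with DESeq2 (of 560 with an adjusted p), 1 with limma-voom, and 2 to 3 when a library was left out. The lowest adjusted p of a member was 0.338, and that of an arm ratio 0.0576 (miR-219c without GDE replicate 1). Arm ratios were fitted with limma only, and DESeq2 gave miR-219c-5p no adjusted p. Without GDE replicate 2 the log2 fold turned to -0.046 for miR-338-5p and to -0.163 for miR-219a-2-3p, and the differences of mean RPM, GDE minus Control, to -12.6 and -0.308. That of miR-219a-5p turned to -0.314 without Control replicate 2. Over the libraries left out the log2 folds ranged from -0.046 to 0.090 for miR-338-5p and from -0.163 to 0.333 for miR-219a-2-3p, and the mean differences from -12.6 to 26.4 RPM (miR-338-5p), from -0.308 to 0.887 RPM (miR-219a-2-3p) and from -0.314 to 4.37 RPM (miR-219a-5p). The cause of these turns was not tested. The other members kept their direction in log2 fold. Same-numbered replicates did not deviate together (r of -0.03, -0.12 and -0.03), and with a replicate block limma called 0 members, 0 arm ratios and 2 of all miRNAs. Members of a few tags, such as miR-219c-5p, are limited by depth, and under the 10 RPM filter the lower members and all arm ratios but that of miR-338 had no value.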
